A study of Mus musculus with 9 samples.

Results

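The peaks described here lie at the promoters of the cytosolic ribosomal protein genes, in ATAC-seq of naive CD4+ T cells. ATAC-seq uses a transposase that cuts open DNA, so the reads in a peak measure how accessible that stretch of chromatin was. A peak was taken when the table of peaks annotated it to a transcription start site (TSS) and its gene symbol began with Rpl or Rps followed by a digit or p, leaving out the Rps6k kinases. The rule found 71 peaks of 67 genes, among 14608 TSS peaks and 115727 peaks in all. Of the 67 genes, 36 encode proteins of the large ribosomal subunit and 24 proteins of the small subunit, and 7 are paralogs, a retrogene or a binding protein with a similar symbol. The peaks were spread over 19 chromosomes, with 12 of the genes on chromosome 7.

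The naive CD4+ T cells came from C57BL/6 mice and were not treated. They were isolated by negative selection with a commercial kit, in 3 groups of 3 libraries. The first group was WT. The second was Stat6_KO, in which Stat6, the transcription factor of interleukin-4 signalling, is knocked out. The third was Il21e_KO, which the labels also call an IL21 knockout without saying which DNA is removed. The labels do not give the age of the mice. They do not say whether a group's libraries came from different mice either, so each p-value rests on variation among these libraries, which may be technical.

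The ribosome joins a small subunit, which reads the mRNA, to a large subunit, which forms the peptide bonds. Most of its proteins are made in equal numbers, and the ribosomal protein genes are expressed strongly in nearly every cell. Many of their transcripts begin with a C followed by a run of pyrimidines, the 5′ terminal oligopyrimidine (TOP) tract, through which mTORC1 signalling controls their translation. A resting naive T cell makes little protein and builds many ribosomes once it is activated.

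The sequences below show the start regions of 10 of these genes, chosen because the results return to them or because they carry the tract. Each runs from 60 bases before the RefSeq transcript start to 30 bases from it, 5′ to 3′ on the gene's strand, in GRCm38.p6. Base 61 is thus the first base of the RefSeq transcript, and the start used in these cells was not measured. Capitals mark a tract, searched on the gene's strand as 5 or more C or T bases that begin with C within 10 bases of the start, or the ETS motif CCGGAAG, searched on both strands. The regions are chr4:86857338-86857427 (minus strand) for Rps6, chr11:114668520-114668609 (plus) for Rpl38, chr3:90213619-90213708 (minus) for Rps27 and chr17:33955636-33955725 (minus) for Rps18. They are chr3:28805448-28805537 (plus) for Rpl22l1, chr4:136053364-136053453 (minus) for Rpl11 and chr5:115559407-115559496 (plus) for Rplp0. They are chr10:128549139-128549228 (minus) for Rpl41, chr7:116334161-116334250 (minus) for Rps13 and chr16:55966215-55966304 (plus) for Rpl24.
Rps6: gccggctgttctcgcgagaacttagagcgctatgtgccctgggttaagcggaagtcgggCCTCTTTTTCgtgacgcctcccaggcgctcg
Rpl38: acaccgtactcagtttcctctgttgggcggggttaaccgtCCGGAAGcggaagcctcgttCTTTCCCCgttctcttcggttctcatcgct
Rps27: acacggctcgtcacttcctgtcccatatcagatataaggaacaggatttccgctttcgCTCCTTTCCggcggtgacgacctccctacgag
Rps18: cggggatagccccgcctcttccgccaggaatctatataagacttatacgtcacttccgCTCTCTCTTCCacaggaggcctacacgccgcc
Rpl22l1: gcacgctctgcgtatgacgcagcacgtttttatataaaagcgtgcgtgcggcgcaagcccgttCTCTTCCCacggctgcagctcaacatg
Rpl11: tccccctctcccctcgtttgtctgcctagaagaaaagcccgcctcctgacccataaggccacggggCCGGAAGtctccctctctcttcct
Rplp0: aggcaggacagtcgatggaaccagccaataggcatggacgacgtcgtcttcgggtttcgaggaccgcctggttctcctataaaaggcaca
Rpl41: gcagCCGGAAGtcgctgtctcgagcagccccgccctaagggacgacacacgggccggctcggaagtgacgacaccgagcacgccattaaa
Rps13: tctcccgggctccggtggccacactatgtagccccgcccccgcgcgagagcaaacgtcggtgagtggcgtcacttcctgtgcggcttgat
Rpl24: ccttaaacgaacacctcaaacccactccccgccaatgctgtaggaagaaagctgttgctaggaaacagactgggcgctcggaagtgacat

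RefSeq windows of 300 bases, from 250 before to 50 after the start, were matched by symbol for 49 of the 67 genes (57 windows). A tract at the start was found in 54.4% of these windows, against 31.7% of 12251 windows of other genes with a TSS peak and 30.7% of all 32851 windows. The ETS motif CCGGAAG stood in 33.3%, against 15.5% and 8.86%. AAGATGGC, the motif of YY1, stood in 8.77% against 3.87% and 2.75%, and CTTTCC, which can lie within a tract, in 47.4% against 26.1% and 26.6%. The SP1 and KLF motif GGGCGG stood in 57.9% against 61.9% of other genes with a peak, the E-box CACGTG in 12.3% against 9.85%, and TATAAA in 10.5% against 7.00%. The STAT motif TTCNNNGAA stood in 5.26% against 6.82%, and the STAT6 form with a spacer longer by a base in 7.02% against 5.32%. The median GC content was 58.0% against 60.7%. All motifs except the tract were searched on both strands, and a match is a description of the letters, not of binding. A tract at a start other than the RefSeq one was not searched for, so a gene counted without a tract may still have one.

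Accessibility is given as CPM, which divides a peak's reads by the library's total over all listed peaks, and levels of different peaks are compared per kb of peak width. In WT cells the 66 peaks over an annotated start had a median of 21.2 CPM per kb, against 22.6 in the 11934 other TSS peaks over a start. Their quartiles were 18.7 and 23.3, a ratio of 1.25, while those of the other promoters were 18.3 and 26.5, a ratio of 1.45. Over all 71 members the ratio was 1.34, against 1.74 over all other TSS peaks. The large subunit had a median of 21.2 (35 peaks) and the small subunit of 20.5 (24 peaks). Mitochondrial ribosomal proteins, which build the separate ribosome of that organelle, had a median of 22.4 (62 peaks) and proteasome subunits of 22.7 (30 peaks), and the ratios of their quartiles were 1.31 and 1.34. The peaks were about as wide as those of other promoters, with a median of 1123 bases against 1148.

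**Figure D1:**
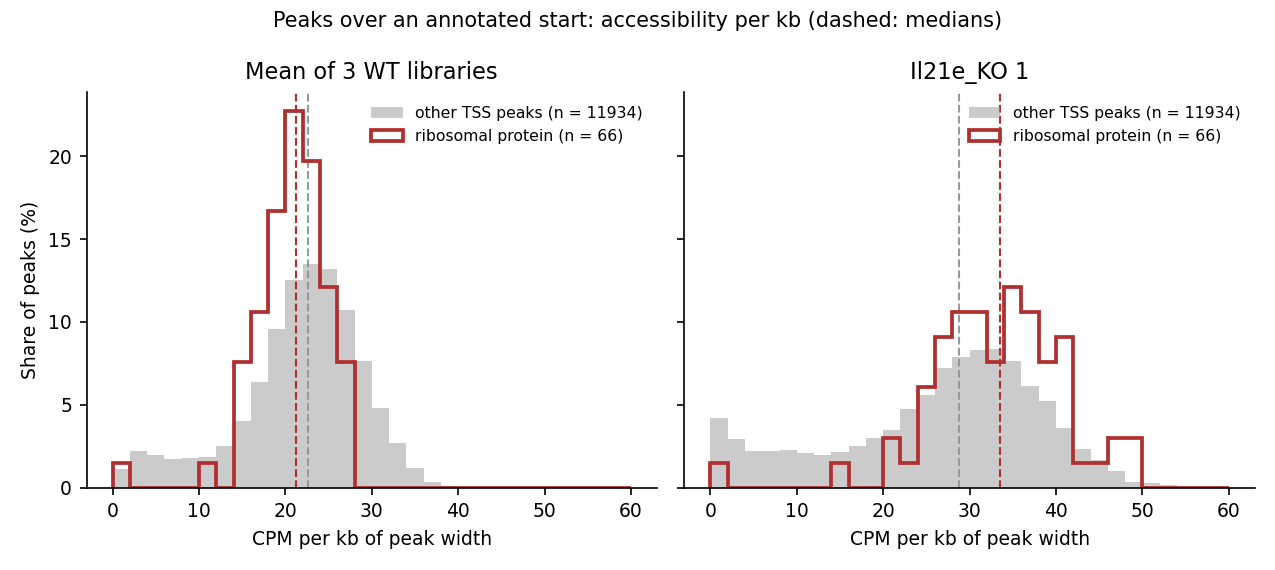
Distribution of CPM per kb of peak width (x axis) as a share of peaks (y axis) for the 66 ribosomal protein peaks over a start (red) and the 11934 other TSS peaks over a start (grey), with dashed lines at the medians. In WT (left, mean of 3 libraries) the red median of 21.2 lies below the grey one of 22.6, and in the library Il21e_KO 1 (right) the red median of 33.6 lies above the grey one of 28.8.

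The highest WT levels were at Rpl13, with 27.8 ± 8.23 CPM per kb (SD, n = 3), Rpl36 with 27.3 ± 6.08, Rpl18 with 26.9 ± 7.08, Rpl29 with 26.7 ± 4.68, Rpl6 with 26.2 ± 3.55 and Rps7 with 26.0 ± 2.19. The first 5 belong to the large subunit, and Rps7 is a small-subunit protein that can also bind the p53 regulator Mdm2. These 6 do not differ from each other beyond their spread. Rpl13, the highest, stood above 84.6% of all TSS peaks, and the 3 WT libraries gave its peak 36.7, 44.4 and 23.9 CPM. Among the peaks that passed the filter on low counts, Rpl27 had the lowest level, with 11.8 ± 3.69 CPM per kb.

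The lowest levels were at short peaks, which belonged to a paralog or lay upstream of the start. Rps4l, a paralog of the X-linked small-subunit gene Rps4x, had 2 adjoining peaks with 0.817 ± 1.42 and 1.26 ± 1.09 CPM per kb (SD, n = 3), and at most 2.86 CPM in any library, while the Rps4x promoter held 23.7 ± 2.46 CPM per kb. The peak given to Rpl15 lies 591 bases upstream of the start and had 0.944 ± 1.64 CPM per kb. A minor upstream peak of Rpl14 had 1.79 ± 3.10, and one of Rps6 had 5.33 ± 4.68. These 5 peaks and a minor upstream peak of Rpl38 are the 6 that did not pass the filter, which left 65 peaks to test.

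Among the proteins of the ribosome's functional centres described here, WT levels ranged from 15.5 to 24.1 CPM per kb. The stalk proteins, which bring translation factors to the large subunit, are Rplp0, with 15.5 ± 3.78 CPM per kb in WT, and Rplp1, with 23.4 ± 1.76 (SD, n = 3). Rpl3, at the centre of peptide bond formation, had 19.2 ± 2.84, and Rpl10, which joins the large subunit late in its assembly, had 23.1 ± 5.07. Rpl39, at the exit of the peptide tunnel, had 24.1 ± 2.58. Rpl5 and Rpl11, which carry the 5S ribosomal RNA and can together block Mdm2, had 17.0 ± 3.40 and 21.2 ± 1.44. Rpl38, known for its part in translation of Hox mRNAs, had 22.1 ± 1.10, and Rpl13a, known for silencing inflammatory mRNAs, had 18.5 ± 0.655.

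In the small subunit, Rps6, the substrate of the S6 kinases downstream of mTORC1, had 23.0 ± 4.84 CPM per kb in WT (SD, n = 3). Rps19, the gene most often mutated in Diamond-Blackfan anaemia, had 17.5 ± 5.05, and Rps14, the gene of the 5q- syndrome, had 20.2 ± 2.09. Rps15, a protein of the subunit head, had 19.6 ± 8.61. The genes of the fixed list without a value here, Rplp2, Rpl23, Rpl39l, Rps2, Rps3 and Rps27a, are among 24 of 90 RefSeq protein-coding symbols of this form for which no peak met the rule, and they were not analysed here.

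Paralogs showed no common order against their parent gene. Rpl22, needed for the development of αβ T cells, had 25.7, 27.2 and 18.7 CPM in the WT libraries, 51.5, 25.2 and 22.2 in Il21e_KO and 22.2, 23.0 and 15.3 in Stat6_KO. Its paralog Rpl22l1 had 18.4, 19.5 and 10.96 CPM in WT, 33.4, 16.4 and 12.2 in Il21e_KO and 14.8, 13.5 and 13.5 in Stat6_KO. Rpl22l1 was below Rpl22 per kb in each library, with 16.8 ± 4.78 against 22.3 ± 4.26 CPM per kb in WT (SD, n = 3). In both genes the first Il21e_KO library was the highest and the other 8 overlapped.

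Rps27 had 22.0, 17.9 and 12.3 CPM in WT, 24.8, 16.4 and 14.98 in Il21e_KO and 13.6, 16.5 and 17.1 in Stat6_KO. Its paralog Rps27l, a p53 target, had 33.7, 33.5 and 29.7 CPM in WT, 57.2, 17.6 and 27.2 in Il21e_KO and 22.2, 25.3 and 28.1 in Stat6_KO. Here the paralog was the higher one per kb in each library except Il21e_KO 2, at 25.2 ± 1.76 against 19.5 ± 5.51 CPM per kb in WT (SD, n = 3). Rpl36al likewise stood at 24.0 ± 8.62 against 18.2 ± 1.46 for Rpl36a, a difference within the spread of the WT libraries. The remaining members of this kind were Rpl7l1, a paralog of Rpl7, with 23.9 ± 1.83, Rps19bp1, which encodes a binding partner of Rps19, with 21.5 ± 1.73, and the retrogene Rpl37rt with 15.04 ± 4.21.

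**Figure D2:**
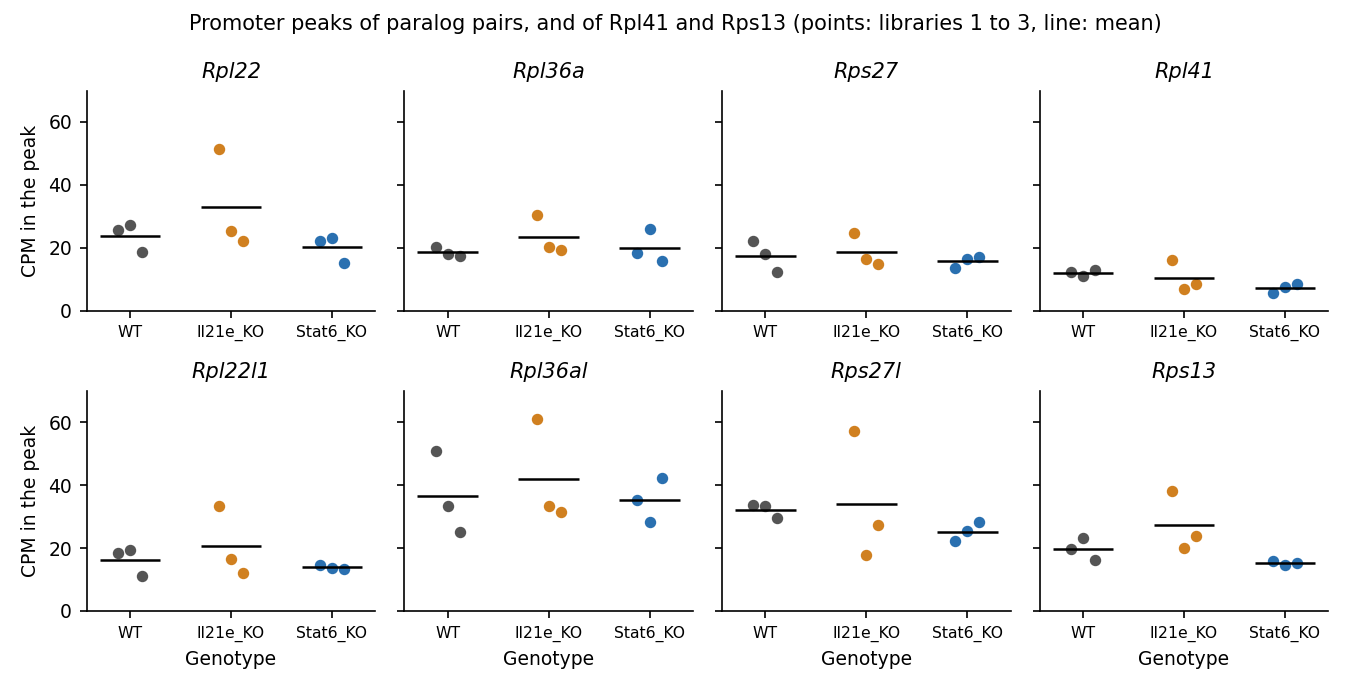
CPM in the promoter peak (y axis) of the 3 paralog pairs and of Rpl41 and Rps13 in each library (points in the order of libraries 1 to 3) by genotype (x axis), with a line at the mean. The first Il21e_KO library is the highest point for all 8 genes, and the 3 Stat6_KO points of Rpl41 (5.68 to 8.56) and Rps13 (14.7 to 15.9) lie below the WT points. For Rps13 the gap is less than 1 read.

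Some of the promoters are neighbours. Rps29 and Rpl36al lie on chromosome 12 with 23.6 kb between their peaks, and Rpl41 and Rps26 on chromosome 10 with 76.4 kb. A start on the opposite strand lay within the peak for 2 of the 66 peaks (3.03%), those of Rps27 with Rab13 and Rps28 with Ndufa7, against 5.99% of other TSS peaks. Reads in such a peak cannot be divided between the genes. Opposite starts were searched only among transcripts to which some listed peak was annotated, so both shares may be too low.

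In a coding exon 12 peak of the targeted gene Stat6 the Stat6_KO libraries held 3 to 5 reads, against 9 to 19 in WT, and in a coding exon 16 peak they held 25 to 41, against 9 to 17. The Stat6 promoter peak held 107 to 113 reads in Stat6_KO and 88 to 137 in WT. Peaks of Il21 held at most 5 reads in any library, too few to check the Il21e_KO label. The first Il21e_KO library stood apart and is treated separately in what follows. It held 1049460 reads in peaks, against 1284426 to 1802405 in the others, had no read in 27200 peaks, against 3898 to 12916, and had 42.7% of its reads in TSS peaks, against 31.6% to 36.4%. The index that ends its label also lies outside the range of the indices of the other libraries. The labels do not say what this index stands for, and its part in the results was not tested. T-cell markers were open in all libraries, with 10 of 11 having a TSS peak and a summed level of 249 to 342 CPM. Markers of other cells had lower sums, none at 0: 17.2 to 45.1 CPM over 6 B-cell genes, 55.3 to 93.2 over 4 myeloid genes, 15.2 to 30.0 over 3 NK genes and 30.0 to 40.5 for Cd8b1. Their part in the results was not tested.

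In that library the ribosomal protein promoters took a larger share of the reads than in any other. The 71 peaks held 0.249% of its reads in peaks, while the other Il21e_KO libraries gave 0.143% and 0.147%, the WT libraries 0.165%, 0.163% and 0.137%, and the Stat6_KO libraries 0.137%, 0.149% and 0.149%. The Il21e_KO mean was 0.180 ± 0.060% (SD, n = 3) with it and 0.145 ± 0.00302% (n = 2) without it, against 0.155 ± 0.0156% in WT and 0.145 ± 0.00706% in Stat6_KO. Without it the genotypes differed by less than the spread between the WT libraries. Of the reads in TSS peaks alone, the members took 0.583% in the first Il21e_KO library, against means of 0.446 ± 0.018% in WT and 0.444 ± 0.00935% in Stat6_KO.

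**Figure D3:**
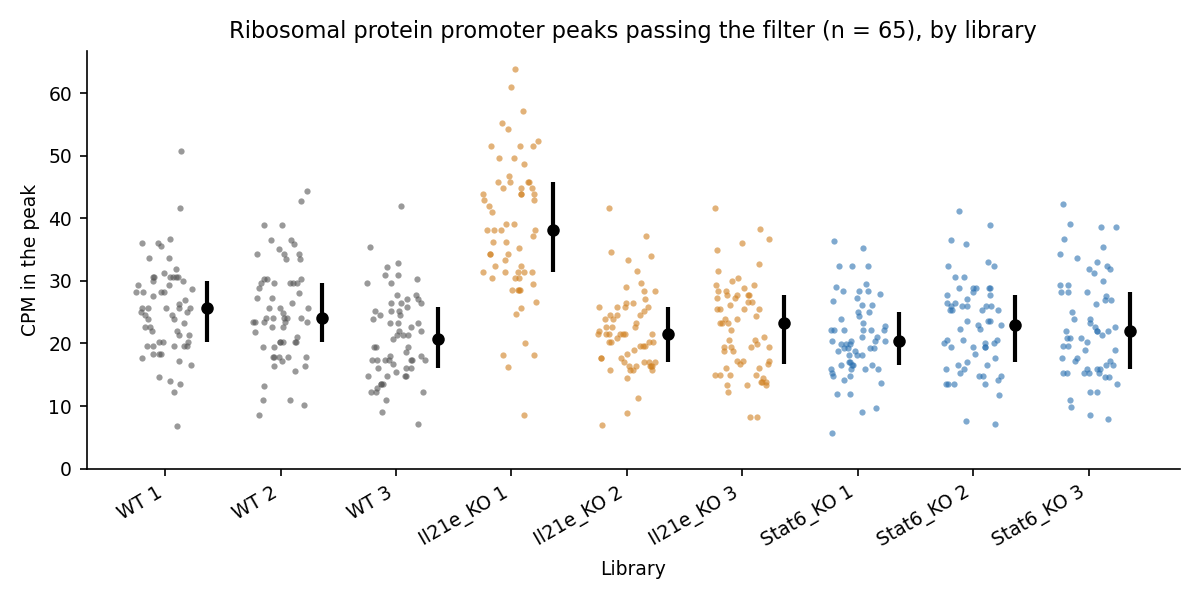
CPM in each of the 65 ribosomal protein promoter peaks that passed the filter (y axis) in each of the 9 libraries (x axis), with the median (black point) and quartiles (black bar). The median of the first Il21e_KO library lies above those of the other 8, while single points overlap between all libraries.

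Set against the mean of the other 8 libraries, the 66 peaks over a start had a median ratio of 1.64 in the first Il21e_KO library (quartiles 1.46 and 1.87). It was above 1 at 64 of the 66, and this library was the highest of the 9 at 61 (92.4%). The other TSS peaks had a median ratio of 1.25 (0.882 and 1.59), with this library the highest at 52.3%, and 21.6% of them reached 1.64. Peaks outside TSS that passed the filter had a median of 0.801. The large subunit (1.66) and the small subunit (1.63) had similar ratios.

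The ratio was above 1 in related groups as well. It was 1.56 for 32 translation factors, 1.52 for 30 proteasome subunits, 1.40 for 42 ribosome biogenesis genes and 1.37 for 62 mitochondrial ribosomal proteins. It also differed with level, with the GGGCGG motif and, without a steady rise, with GC content. Other TSS peaks below the lower quartile of WT level per kb had a median ratio of 0.800, those up to the median 1.47, those up to the upper quartile 1.33 and those above it 1.18. The ribosomal protein peaks in the same 4 ranges had 1.68 (16 peaks), 1.74 (29), 1.57 (17) and 1.50 (4). The WT libraries that set these ranges are also among the libraries that the ratio divides by, so level and ratio are not independent. Members with GGGCGG in their window had 1.76 (29 genes) and those without 1.46 (19), against 1.31 and 1.22 for other genes. Across 4 rising ranges of window GC content, other genes had 1.22, 1.32, 1.34 and 1.25. Members in these ranges had 1.46 (19 genes), 1.71 (18), 1.85 (9) and 1.67 (2). The GGGCGG and GC values took only peaks over a start. For the tract, the highest peak of each of the 49 matched genes was taken, including the upstream peak of Rpl15. Members with a TOP-like tract at the RefSeq start had 1.58 (29 genes) and those without 1.62 (20). The part of level, base composition or depth in the ratio was not tested.

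Single promoters ranged widely. Rpl27, a large-subunit gene, had the largest ratio of the tested members, 2.72, with 38.1 CPM in this library against 8.56 to 16.5 in the other 8. Rpl13 went the other way at 0.857, with 32.4 CPM against 23.9 to 44.4. The other members for which another library was highest were Rps15a, Rps19bp1, Rpl37rt and the start peak of Rps4l. These genes were singled out after their values were seen.

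**Figure D4:**
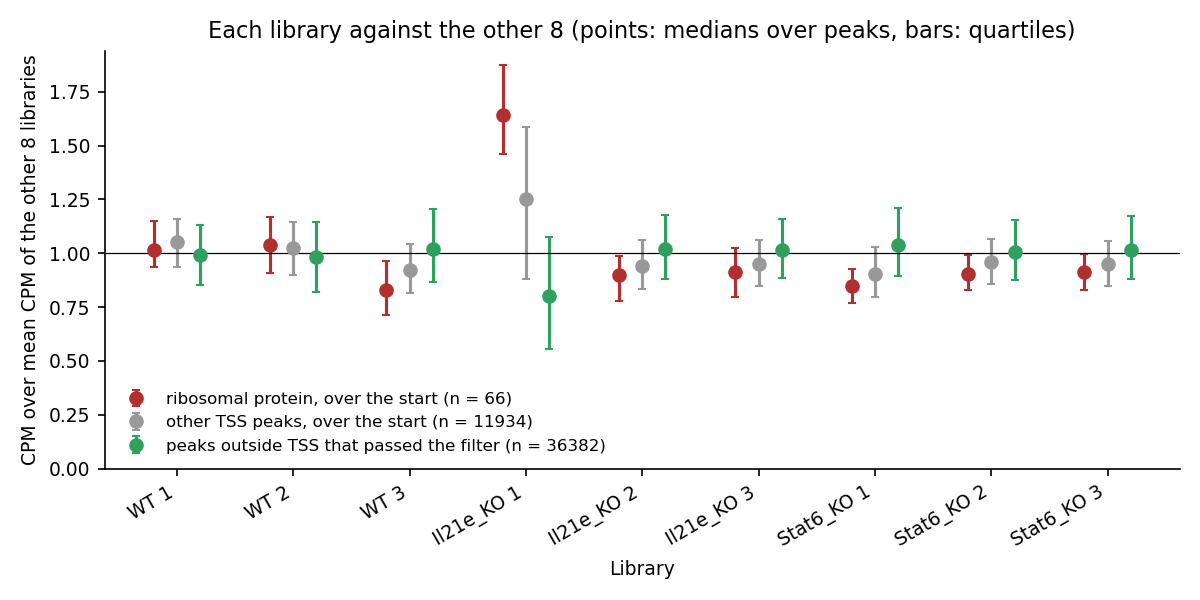
CPM of each library over the mean of the other 8 (y axis), by library (x axis), as the median over peaks with quartiles, for ribosomal protein peaks over a start (red), other TSS peaks over a start (grey) and tested peaks outside TSS (green). In Il21e_KO 1 the 3 medians are 1.64, 1.25 and 0.801, and in the other 8 libraries all medians lie between 0.831 and 1.05.

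The comparison of Stat6_KO with WT asks whether promoters open differently without STAT6. No ribosomal protein promoter passed the test. By limma-trend with adjustment over all 48287 tested peaks at a false discovery rate of 0.05, 0 of 65 were called, where 0.0104% of all tested peaks were called. edgeR, DESeq2 and limma-voom on the recovered reads called 0 of them as well. The share of all tested peaks that these methods called is not given here for any comparison. At an unadjusted p under 0.05 limma-trend gave 0 higher and 1 lower (1.54%), beside 0.58% of tested TSS peaks higher and 2.53% lower. The median log2 fold change was -0.10 (quartiles -0.21 and 0.014), beside -0.081 over all tested TSS peaks and -0.0046 over all peaks. Of the 65, 48 were negative (73.8%), beside 67.1% of TSS peaks. Scaled to the reads in TSS peaks, the median was -0.021. A fit without the first Il21e_KO library, which narrows the shared estimate of spread, called 0.126% of all tested peaks and 0 members, with 0 higher and 3 lower at an unadjusted p under 0.05, beside 2.12% and 9.37% of TSS peaks.

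Every Stat6_KO library lay below every WT library at 8 members (12.3%), beside 10.7% of tested TSS peaks, and above at 0, beside 3.26%. They were Rpl41, Rpl3, Rps13, Rpl13a, Rpl38, Rps27l, Rps19bp1 and Rps4x, the last named after its values were seen. Rpl41, which encodes the shortest ribosomal protein, has its promoter peak at chr10:127985888-127986663 (mm9, as listed). It had 12.2, 10.9 and 12.9 CPM in WT and 5.68, 7.65 and 8.56 in Stat6_KO, a log2 fold change of -0.66 ± 0.29 (SE; limma-trend adjusted p = 1.00). The Il21e_KO libraries gave this peak 16.2, 6.93 and 8.32 CPM, so that 2 of them overlapped the Stat6_KO values and 1 lay above WT. Its lowest adjusted p over all alternatives was 0.347.

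The other members with the smallest p were no more separated. Rpl3 had 18.4, 23.4 and 24.5 CPM in WT and 17.0, 14.1 and 17.7 in Stat6_KO, a log2 difference of -0.41 ± 0.24 (SE). Rps24, a small-subunit gene also mutated in Diamond-Blackfan anaemia, had a difference of -0.41 ± 0.27 with overlapping groups, and Rps13 of -0.33 ± 0.23. On the positive side stood Rpl5 with 0.29 ± 0.21, Rps18 with 0.23 ± 0.23, Rpl27a with 0.21 ± 0.22 and Rpl13 with 0.16 ± 0.20, each with overlapping groups. Rps6 had -0.10 ± 0.21, Rpl22 -0.24 ± 0.27 and Rpl22l1 -0.17 ± 0.29.

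The precision bounds what could be seen. A tested member held 9 to 83 reads in a library, with a median of 36, whose exact 95% Poisson interval is 25.2 to 49.8 and covers counting error only. The 95% interval of a log2 difference extended to either side by a median of 0.49. In Stat6_KO against WT no interval reached +1 and only that of Rpl41 reached -1, so a 2-fold difference on this scale lay outside the interval of the other 64. In bulk cells, fewer cells with an open promoter and less opening per cell cannot be told apart.

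Il21e_KO against WT asks the same of the Il21e allele. Again 0 of 65 were called by limma-trend, edgeR, DESeq2 or limma-voom, where limma-trend called 0% of all tested peaks, and at an unadjusted p under 0.05 limma-trend gave 2 higher (3.08%) and 0 lower, beside 1.25% and 1.18% of TSS peaks. The median log2 fold change was 0.13, beside 0.033 over TSS peaks, and 11 of 65 were negative (16.9%), beside 42.8% of TSS peaks. Without the first Il21e_KO library the median was -0.10, beside -0.071 over TSS peaks, and 44 of 65 were negative (67.7%), beside 63.7%. In that fit 0 members were called, where 0.00414% of all tested peaks were, and 0 were higher and 6 lower at an unadjusted p under 0.05, beside 1.86% and 7.11% of TSS peaks. Of the fits that left out 1 library, it was negative only in that one.

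The 2 members at an unadjusted p under 0.05 were Rps18, a protein of the small-subunit head, and Rpl27. Rps18 had 25.7, 22.6 and 16.1 CPM in WT and 39.1, 34.7 and 21.1 in Il21e_KO, a log2 fold change of 0.52 ± 0.23 (SE; limma-trend adjusted p = 1.00). Rpl27 had 16.5, 8.56 and 13.5 CPM in WT and 38.1, 15.8 and 13.9 in Il21e_KO, a log2 fold change of 0.67 ± 0.31. In both, the groups overlapped, and for Rpl27 the other 2 Il21e_KO libraries lay within the WT range. The values were 0.35 ± 0.20 for Rps18 and 0.23 ± 0.24 for Rpl27 without the first Il21e_KO library.

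Rpl24, a large-subunit protein that contacts the small subunit, was the one member with every Il21e_KO library above every WT library (1.54% of members, beside 2.55% of TSS peaks), and 0 members were separated the other way (2.63% of TSS peaks). It had 21.4, 24.1 and 18.1 CPM in WT, 31.4, 26.5 and 26.6 in Il21e_KO and 21.0, 19.4 and 15.3 in Stat6_KO. The log2 difference of Rpl24 from WT was 0.40 ± 0.19 (SE) in Il21e_KO, and 0.32 ± 0.19 without the first library. With that library left out, 1 member was separated higher (1.54%, beside 6.71% of TSS peaks) and 7 lower (10.8%, beside 15.9%). Rpl19 had 0.41 ± 0.22 with overlapping groups, and 0.19 ± 0.18 without that library. The most negative were Rpl41 with -0.26 ± 0.29, Rps7 with -0.17 ± 0.21, Rpl39 with -0.11 ± 0.18 and Rplp1 with -0.11 ± 0.28. These were -0.59 ± 0.27, -0.33 ± 0.19, -0.30 ± 0.16 and -0.54 ± 0.18 without the first Il21e_KO library.

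Rplp1 shows how far 1 library set these values. Its Il21e_KO libraries had 49.5, 22.7 and 16.6 CPM, against 30.6, 29.6 and 26.4 in WT. The first lay above and the other 2 below every WT library, and without the first its adjusted p was the lowest of any member in this comparison, 0.554 by limma-trend.

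Stat6_KO against Il21e_KO set the knockouts side by side. No member was called by limma-trend (lowest adjusted p 0.780), edgeR, DESeq2 or limma-voom, where limma-trend called 0.0104% of all tested peaks. At an unadjusted p under 0.05 it gave 0 higher and 6 lower (9.23%), beside 1.44% and 5.14% of TSS peaks. The median log2 fold change was -0.24, beside -0.12 over TSS peaks, and 62 of 65 were negative (95.4%), beside 69.7%. Without the first Il21e_KO library the median was -0.029, beside -0.013 over TSS peaks, and 35 of 65 were negative (53.8%), beside 53.3%. In that fit 0 members were called, where 0.0352% of all tested peaks were, and 2 were higher and 2 lower at an unadjusted p under 0.05, beside 1.84% and 1.98% of TSS peaks.

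The smallest p belonged to Rps13, a small-subunit gene whose peak lies at chr7:123477216-123478304 (mm9, as listed). It had 38.1, 20.2 and 23.9 CPM in Il21e_KO, 15.9, 14.7 and 15.3 in Stat6_KO and 19.6, 23.4 and 16.1 in WT. The 3 Stat6_KO values lay together, below every library of both other genotypes. The highest of them, 15.9, lay under the lowest WT value, 16.1, by less than 1 read, which is 0.568 CPM in Stat6_KO 1 and 0.645 CPM in WT 3. The log2 fold change from Il21e_KO was -0.75 ± 0.23 (SE; limma-trend adjusted p = 0.780). It was -0.49 ± 0.20 without the first Il21e_KO library. Rplp0 had 32.4, 19.5 and 17.2 CPM in Il21e_KO and 11.9, 13.5 and 14.7 in Stat6_KO, a difference of -0.69 ± 0.25, which was -0.43 ± 0.22 without that library. Rpl24 had -0.58 ± 0.19 with it and -0.50 ± 0.19 without it, and Rpl22 had -0.61 ± 0.27 and -0.24 ± 0.20.

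The groups were separated at 9 members, all with Stat6_KO lower (13.8%, beside 7.72% of TSS peaks), and 0 had it higher (2.6% of TSS peaks). Without the first Il21e_KO library the groups were separated at 10 members with Stat6_KO lower (15.4%, beside 10.9% of TSS peaks) and 6 with it higher (9.23%, beside 8.98%). On the positive side stood only Rps14 with 0.09 ± 0.24, Rplp1 with 0.08 ± 0.28 and Rpl5 with a difference near 0, and without that library their values were 0.43 ± 0.17, 0.51 ± 0.18 and 0.20 ± 0.19. The interval of the log2 difference reached -1 for 11 members and +1 for 0. All comparisons share libraries: both knockouts were set against the same WT libraries, and this one reuses both knockout groups.

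**Figure D5:**
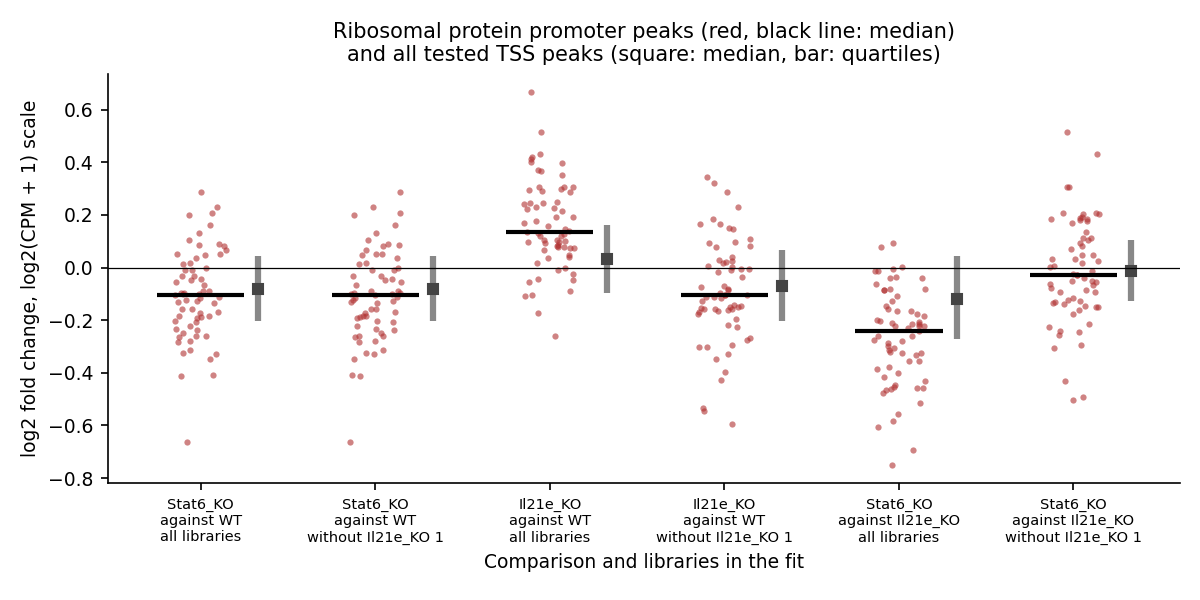
Log2 fold change (y axis, log2(CPM + 1) scale) of the 65 tested ribosomal protein peaks (red points, black line at the median) beside the median and quartiles of all 11905 tested TSS peaks (grey), for the 3 comparisons with all libraries and without Il21e_KO 1 (x axis). The member medians are -0.10, 0.13 and -0.24 with all libraries and -0.10, -0.10 and -0.029 without that library.

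The lists of other genes of protein synthesis and turnover held no called peak either. In Stat6_KO against WT 0 peaks were called by limma-trend among 63 mitochondrial ribosomal protein peaks (median -0.11), 30 of proteasome subunits (-0.071), 32 of translation factors (-0.15), 43 of ribosome biogenesis genes (-0.15) and 18 of genes that control ribosomal protein synthesis (-0.17). At an unadjusted p under 0.05 these lists gave 0 higher and 3, 0, 0, 3 and 1 lower, where 0.58% of TSS peaks were higher and 2.53% lower. In Il21e_KO against WT 0 were called, with medians of 0.064, 0.031, 0.053, 0.065 and 0.024, against 0.13 for the ribosomal proteins. Without the first Il21e_KO library these 5 medians were -0.13, -0.17, -0.14, -0.13 and -0.12, against -0.10. In Stat6_KO against Il21e_KO 0 were called, with medians of -0.20, -0.18, -0.21, -0.19 and -0.25, against -0.24. Without that library they were -0.0066, -0.012, 0.0074, -0.0038 and -0.014, against -0.029.

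Outside their promoters, genes of the set had 12 further peaks within the gene. The largest was in coding exon 4 of Rps4x, with 10.5 ± 3.05 CPM in WT, 7.97 ± 1.87 in Il21e_KO and 10.7 ± 3.35 in Stat6_KO (SD, n = 3). Rpl22 had a peak at its termination site with 8.97 ± 3.74, 8.57 ± 0.25 and 7.61 ± 2.08 CPM. None of the 12 was called in any comparison by limma-trend, and 6 of them did not pass the filter.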

How the data were processed

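ATAC-seq was measured in 9 libraries, 3 per genotype. The authors deposited CPM for one set of peaks on mm9, with each library scaled to its reads in the listed peaks. Per the submitters' processing notes, Bowtie 1.3.0, MACS2 2.0 and HOMER were used. The role of each is not given in the sources used here. Headers of the gene columns were shifted and were read by content. All values were whole multiples of a step per library, taken as 1 read (100% within 0.01 read).

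Peaks with enough reads (filterByExpr, minimum count 10, total 15) were tested on the log2(CPM + 1) scale by the limma-trend method, run in limma 3.58.1 under R 4.3.3. That scale understates the change of low peaks. All libraries entered 1 fit, with Benjamini-Hochberg adjustment over all tested peaks. The planned edgeR test applied to counts. On recovered reads, edgeR 4.0.16, DESeq2 1.42.0 and limma-voom were alternatives. The procedure was also run on simulated data, and the outcome is not given here. No simulated library had a shifted share of TSS reads like that of Il21e_KO 1.

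The members, gene lists and motifs were chosen with earlier results of these data known. Named members are, per comparison, the 4 lowest p-values on each side of 0, the 6 highest and 5 lowest in WT CPM per kb, all paralogs, and a fixed list of 23 genes. Library sizes and depths stand with the results. A few genes of the lists are not reported here.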

Additional observations from a re-analysis of the deposited data

How the results depend on the processing

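The count of called members was 0 in all 3 comparisons under every alternative run: pseudocounts of 0.25 and 5, no filter, TMM, TSS-read and cyclic loess scaling, edgeR, DESeq2, limma-voom, fits of the compared groups alone, and each library left out. The direction of the medians held except in Il21e_KO against WT, where the median was -0.10 without the first Il21e_KO library and, in an alternative chosen after seeing the data, -0.027 without it and scaled to TSS reads. Leaving out each library gave -0.19 to -0.057 for Stat6_KO against WT (without WT 3 and WT 2), -0.10 to 0.32 for Il21e_KO against WT and -0.36 to -0.029 for Stat6_KO against Il21e_KO. Over all alternatives the lowest adjusted p of a member was 0.347, 0.554 and 0.369. Of these alternatives, only the fit without the first Il21e_KO library has its share of all tested peaks called given here.

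Same-numbered libraries deviated from their group means with correlations of -0.19 to 0.25. Il21e_KO 1 and 3 correlated best with the WT library of their own number (0.21 and 0.25), and Il21e_KO 2 did not. In the other comparisons no library did. With so few libraries these correlations cannot settle whether replicate numbers pair the samples. With the replicate block, 0 members were called in each comparison, with medians of -0.10, 0.13 and -0.24.

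As a share of TSS reads instead of all reads in peaks, the members held 0.446% in WT, 0.489% in Il21e_KO and 0.444% in Stat6_KO. Of all reads in peaks they held 0.155% in WT, 0.180% in Il21e_KO and 0.145% in Stat6_KO. Without the paralogs, the binding protein and the retrogene, these shares of all reads in peaks were 0.141%, 0.163% and 0.131%. The ratio of WT median level per kb, members over other TSS peaks, was 0.970 over all peaks, 0.942 per peak, 0.921 among tested peaks, 0.936 over the start (added after seeing the data) and 0.933 to 0.995 with a WT library left out, the highest without WT 3.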
